A study of Mus musculus with 6 samples.

Results

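The 10 genes of major histocompatibility complex (MHC) class I antigen presentation studied here were followed through the cell classes of the mouse liver and between 2 treatment groups. These genes were taken by symbol, *H2-K1*, *H2-D1*, *B2m*, *Tap1*, *Tap2*, *Tapbp*, *Nlrc5*, *Psmb8*, *Psmb9* and *Erap1*, and all 10 were found among the 19349 genes of every count table. The libraries came from liver non-parenchymal cells of male C57BL/6J mice, bought at 8 weeks of age, with nonalcoholic steatohepatitis (NASH) after 24 weeks of high-fat diet. In the last 8 weeks the vehicle group received DMSO into the stomach, and the ginkgetin group received, by the same route, the biflavone ginkgetin (10 mg/kg daily). Both groups had the same diet, so no healthy liver stands beside them here, and each group had 3 libraries counted, per the methods of the study, by droplet single-cell RNA sequencing. The labels name another kit, for RNA libraries, beside a single-cell source, and the barcoded whole-number tables were read as UMI counts. Nothing in the labels ties a library to one animal, so the p-values measure the spread between libraries only.

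Class I molecules show peptides from inside nearly every nucleated cell to CD8 T cells and are read by inhibitory receptors of NK cells. The proteasome cuts the peptides, the TAP transporter moves them into the endoplasmic reticulum, an aminopeptidase trims them, and a loading complex places them on a heavy chain bound to beta-2-microglobulin. Interferon gamma raises most of these genes and exchanges the catalytic subunits of the proteasome for inducible ones. Liver sinusoidal endothelial cells and Kupffer cells can both present antigen to T cells that pass through the sinusoids.

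Of the members, 8 had a promoter in the RefSeq table (GRCm38.p6, the build named in the submitters' processing notes), and *Tap2* and *Nlrc5* were absent from it. Of these genes, 6 (*Tapbp*, *H2-K1*, *Psmb9*, *Tap1*, *Psmb8* and *Tap2*) lie within 33919478 to 34216321 of chromosome 17 and *H2-D1* at 35263094 to 35267497. *B2m* lies on chromosome 2, *Erap1* on chromosome 13 and *Nlrc5* on chromosome 8. *Psmb9* and *Tap1* are read in opposite directions from starts separated by 225 bases, so one interval precedes both genes. The 4 stretches below are shown because the comparisons between groups turn on these genes: *Psmb8* at chr17:34197945-34198194, the *Psmb9*-*Tap1* interval at chr17:34187331-34187555, *H2-D1* at chr17:35262844-35263093 and *B2m* at chr2:122147437-122147686. All are the plus strand of the intergenic side of the annotated start. Capitals mark matches, on either strand, to the core of the interferon-stimulated response element (GAAANNGAA) or to the interferon gamma activated site (TTCNNNGAA).
Psmb8: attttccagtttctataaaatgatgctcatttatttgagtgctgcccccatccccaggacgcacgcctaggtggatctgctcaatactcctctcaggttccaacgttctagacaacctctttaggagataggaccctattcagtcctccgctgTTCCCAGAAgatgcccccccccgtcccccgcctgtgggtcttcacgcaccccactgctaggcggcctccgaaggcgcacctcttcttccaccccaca
Psmb9-Tap1: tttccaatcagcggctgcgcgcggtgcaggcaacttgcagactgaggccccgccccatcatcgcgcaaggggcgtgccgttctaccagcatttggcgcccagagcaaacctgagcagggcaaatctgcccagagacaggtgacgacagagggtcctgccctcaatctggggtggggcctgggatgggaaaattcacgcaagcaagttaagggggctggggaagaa
H2-D1: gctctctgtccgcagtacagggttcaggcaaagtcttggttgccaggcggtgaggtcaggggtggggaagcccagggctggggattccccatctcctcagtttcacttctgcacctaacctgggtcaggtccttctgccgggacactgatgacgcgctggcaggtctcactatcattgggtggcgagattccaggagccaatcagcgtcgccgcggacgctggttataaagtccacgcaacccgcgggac
B2m: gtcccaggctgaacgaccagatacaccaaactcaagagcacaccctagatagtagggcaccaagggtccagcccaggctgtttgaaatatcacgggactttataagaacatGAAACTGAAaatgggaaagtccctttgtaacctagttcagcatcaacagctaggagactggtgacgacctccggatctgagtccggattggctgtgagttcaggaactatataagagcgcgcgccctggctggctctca
The 250 bases before *Psmb8* held 1 match to the gamma activated site, beginning 97 bases before the start, and those before *B2m* held 1 match to the response element core, beginning 139 bases before it. Of 32851 promoter windows of 300 bases, 8.56% held the response element core and 8.30% the gamma activated site. The *Psmb9*-*Tap1* interval and the stretch before *H2-D1* held neither run of letters. Of the members whose stretch is not shown, *Erap1* held 2 overlapping matches to the response element core, at -9 and -3 from the start. The windows of *H2-K1* and *Tapbp* held neither. A match, or the lack of one, describes these letters only.

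The tables held 33168 barcodes and between 13128697 and 61796882 UMIs (unique molecular identifiers, each counting 1 captured transcript) per library, and 27544 cells were kept. Replicate 3 of both groups stood apart from replicates 1 and 2: it shared at most 1 barcode with any of their libraries, and 354 genes had more than 300 UMIs in its libraries and 0 in replicates 1 and 2, against 291 genes the other way round. Libraries of replicates 1 and 2 shared between 23 and 85 barcodes with each other. *B2m* followed this division, with 5822 to 6837 CPM (UMIs of a gene scaled so that every library has the same total) in vehicle replicates 1 and 2 against 1896 in vehicle replicate 3, and 3013 to 3831 against 2632 in the ginkgetin libraries. The part of this division in each result was not tested beyond the values within it that are given below. Cells were placed in 10 classes from markers, except for 4314 cells of 6 clusters that stayed outside them. Of these, 1758 and 930 formed the monocyte-like cells named at the finer level, and 942 formed a cluster led by *Wnt2* and *Kit* with endothelial markers, of which 261 and 665 came from ginkgetin replicates 1 and 2 and which is not in the endothelial-like values. All markers were highest in their own class for 9 classes and 5 of 8 for dendritic-like cells. The class I genes were left out of the clustering.

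Levels are CPM within a class, scaled by the UMIs of that class in a library, and averaged over libraries. *B2m*, the light chain of all class I molecules, was highest in stellate-like cells at 6617 ± 3550 CPM (SD, n = 6) and lowest in cholangiocyte-like cells at 2244 ± 1112 (SD, n = 6). The difference between these classes had the same direction in 6 of 6 libraries. Stellate-like cells were few, 24 to 73 a library, and joined the cluster led by *Dcn* and *Colec11* (pooled *B2m* 6855 and *H2-D1* 4314 CPM) with that led by *Gsn* and *Igfbp6* (2833 and 1653 CPM). Without the cells of highest doublet score only 3, 1 and 23 stellate-like cells were left in the vehicle libraries. The heavy chain *H2-D1* was also highest in stellate-like cells (3478 CPM), followed by NK-like (2825 CPM) and macrophage-like cells (2577 CPM). The heavy chain *H2-K1* was highest in NK-like cells (2818 CPM), followed by stellate-like (2588 CPM) and cholangiocyte-like cells (2334 CPM). Both heavy chains were lowest in hepatocyte-like cells, at 345.3 CPM for *H2-D1* and 432.9 CPM for *H2-K1*. Reads of the near-identical heavy chain genes may be split between them by the counting, which is not described for these tables.

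The peptide transporter and the trimming enzyme had other orders. *Tap1*, one chain of the transporter, was highest in dendritic-like cells, where the vehicle libraries had 158.9, 121.8 and 205.6 CPM and the ginkgetin libraries 165.9, 127.6 and 279.3 CPM. T-like cells came next at 117.5 CPM and were lower than dendritic-like cells in 6 of 6 libraries. In hepatocyte-like cells 3 of 5 libraries had no *Tap1* UMI, and the counts allow up to 14.1 CPM in vehicle replicate 1, 5.93 CPM in vehicle replicate 2 and 72.9 CPM in ginkgetin replicate 2, which had 12 such cells. *Tap2*, the other chain, reached 113.8 CPM in dendritic-like cells, 112.4 CPM in T-like cells and 108.3 CPM in endothelial-like cells, levels that lay within the spread of the libraries. *Tapbp*, which encodes tapasin and holds the heavy chain to the transporter, ranged from 124.2 CPM in cholangiocyte-like to 242.7 CPM in stellate-like cells apart from 17.2 CPM in hepatocyte-like cells. *Erap1*, the aminopeptidase, was highest in endothelial-like cells at 39.0 CPM. There, too, replicate 3 stood apart, with 60.6 and 77.1 CPM against 19.9 to 29.7 CPM in the other 4 libraries.

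By their means over libraries, the inducible proteasome subunits *Psmb8* and *Psmb9* were both highest in dendritic-like cells. *Psmb8* averaged 847.1 CPM there, 649.3 in T-like, 625.1 in NK-like and 165.4 in endothelial-like cells. It was higher in dendritic-like than in T-like cells in only 4 of 6 libraries. *Psmb9* averaged 449.1 CPM in dendritic-like and 247.7 in NK-like cells, and the first exceeded the second in 6 of 6 libraries. Both genes were highest in replicate 3 of each group, with *Psmb8* at 1435 CPM (vehicle) and 780.4 CPM (ginkgetin). The cluster led by *Ccl22* held 112 vehicle and 66 ginkgetin cells of replicate 3 and at most 38 cells of any other library. That led by *Cd209a* held at most 3 cells of a replicate 3 library. The part of these clusters in the class means was not tested. Within the dendritic-like cells, the cluster led by *Xcr1* had 85 and 47 cells in vehicle replicates 1 and 2, 50 and 86 in ginkgetin replicates 1 and 2 and at most 4 in a library of replicate 3. Its *Psmb8* was 1254 and 831.6 CPM in those vehicle libraries and 700.0 and 563.6 CPM in those ginkgetin libraries, and its *Psmb9* was 808.1 and 563.3 against 425.2 and 332.1 CPM. With 2 libraries a group these values were not tested.

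*Nlrc5*, which encodes the transactivator of class I genes, was highest in NK-like and T-like cells. It averaged 89.4 ± 53.1 CPM (SD, n = 6) in NK-like and 75.6 ± 31.4 CPM (SD, n = 6) in T-like cells, then 32.0 CPM in dendritic-like cells and between 8.89 and 17.1 CPM in the other 7 classes. T-like cells exceeded dendritic-like cells, and these exceeded B-like cells, in 6 of 6 libraries each. Stellate-like cells, which had the highest *H2-D1*, had 16.8 CPM of *Nlrc5*.

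Neighbours in the 10 orders were compared within libraries by two-sided exact sign-flip permutation tests. Of 90 neighbouring pairs, 10 had the same direction in 6 of 6 libraries (exact p = 0.03125, the smallest that 6 libraries allow), and after adjustment over all pairs none passed (lowest adjusted p = 0.281). With 90 pairs this adjustment could not be passed at 6 libraries unless far more pairs reached that p, so it does not show that neighbours are alike. Among the 10 pairs, *B2m* in T-like over dendritic-like cells differed by 0.42 ± 0.06 (SD of the log2 difference, n = 6), *Nlrc5* in T-like over dendritic-like cells by 1.24 ± 0.23 and *Tapbp* in NK-like over T-like cells by 0.42 ± 0.14. In the other 80 pairs at least 1 library ran against the order or only 5 libraries had both classes.

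**Figure D1:**
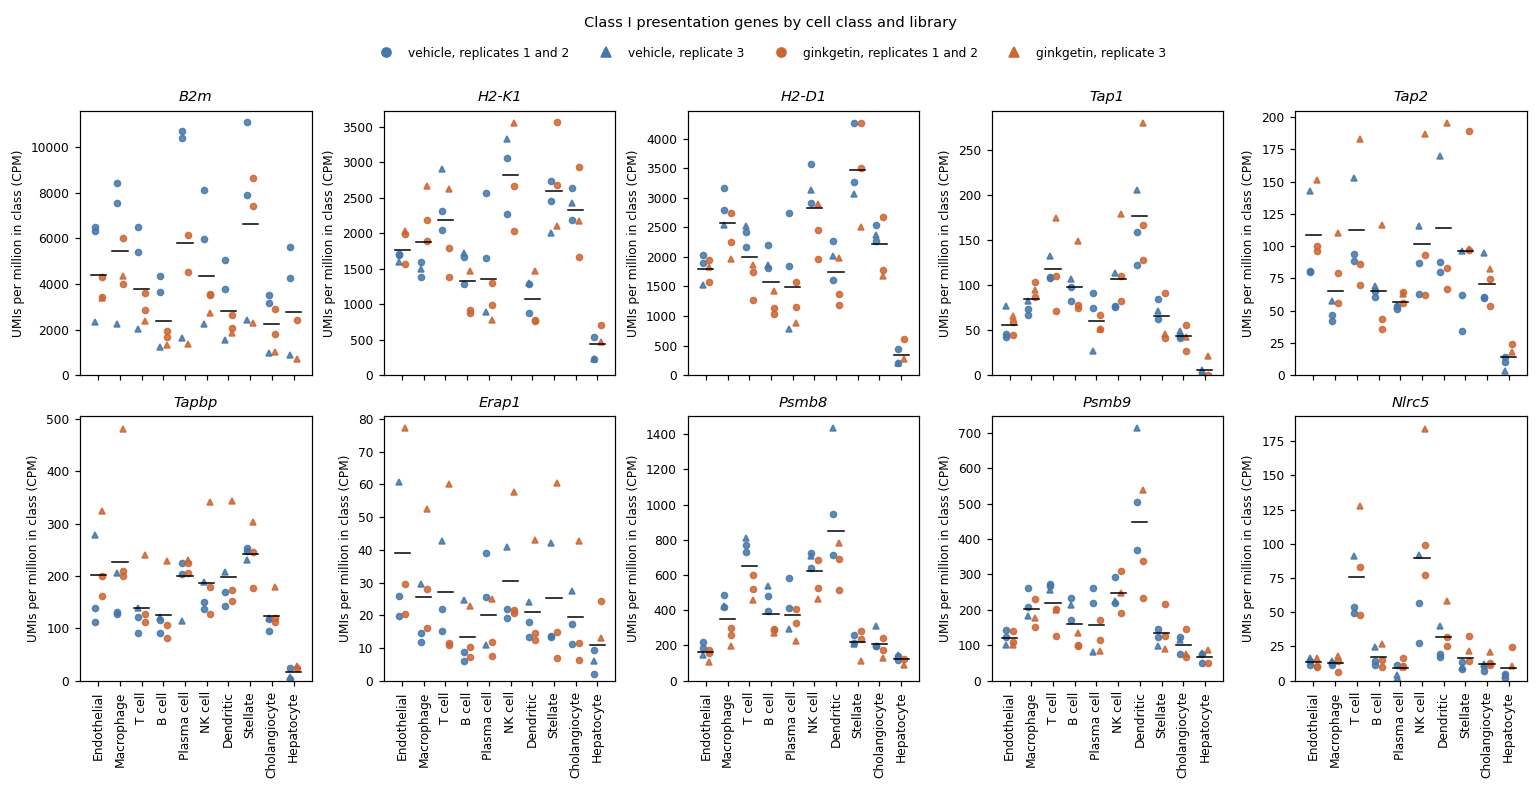
CPM of each member (vertical axis, linear, from 0) in the 10 cell classes (horizontal axis), with 1 point per library, colours for the groups, triangles for replicate 3 and a bar for the mean over libraries. By the bars, *Psmb8*, *Psmb9* and *Tap1* stand highest in dendritic-like cells and *Nlrc5* in NK-like and T-like cells. The triangles for *B2m* lie below the vehicle circles in every class.

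Members varied together in pairs over the 59 class and library sums. The highest Pearson correlations of log2(CPM + 1) were 0.91 between *H2-K1* and *H2-D1* and 0.87 between *Psmb8* and *Psmb9*, and *B2m* with *Nlrc5* had the lowest at -0.13. These points share libraries, depth and division into barcode sets and carry no p. Among 6207 other genes with a mean of 20 CPM or more, those most alike were *Klf6*, *Mfsd10* and *Gon4l* for *H2-K1* (0.84 to 0.81), *Pelo*, *Srp14* and *Srp54b* for *B2m* (0.77 to 0.74) and *Adgre5*, *Stx16* and *Git2* for *Tap1* (0.91 to 0.89). *Arpc1b*, *Actr3* and *Tmsb4x* were most alike to *Psmb9* (0.83 to 0.79), *Hmgb2*, *Nup153* and *Mbnl1* to *Nlrc5* (0.82 to 0.80) and *Trpc4ap*, *AI314180* and *Clec2d* to *Erap1* (0.75). For *Psmb8*, added after its values had been seen, they were *Selplg*, *Abracl* and *Cd52* (0.89 to 0.85).

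The question between the groups was whether these genes changed with ginkgetin in any class. One of them passed the test, in one class: *Psmb8* fell in macrophage-like cells. Its vehicle libraries had 486.8, 420.3 and 425.3 CPM and its ginkgetin libraries 299.0, 258.0 and 195.8 CPM. The highest ginkgetin value was under the lowest vehicle value. By edgeR's quasi-likelihood test it fell by 1.25 on the log2 scale (SE 0.29, adjusted p = 0.036 over all genes tested in the class). Among the 10141 genes tested in macrophage-like cells 12.9% were called, 6.26% of all tested were called lower in ginkgetin, and 7.8% had all ginkgetin libraries below all vehicle libraries, so 1 of 10 members is near that background. Pooled counts behind the value are uneven, with 5819, 2399 and 7725 *Psmb8* UMIs in the vehicle libraries against 96, 176 and 413 in the ginkgetin libraries. The call was lost without vehicle replicate 1 (adjusted p = 0.155 by edgeR), vehicle replicate 2 (0.150), ginkgetin replicate 2 (0.112) or ginkgetin replicate 3 (0.063), and when the range of 250 to 5000 was applied to UMIs rather than genes per cell (0.144). Within replicates 1 and 2 the log2 ratio of mean CPM was -0.70 and within replicate 3 it was -1.11.

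The share of macrophage-like cells with a *Psmb8* UMI, with each cell thinned to 1000 UMIs, was 34.2% ± 2.76 (SD, n = 3) in the vehicle and 20.8% ± 5.45 (SD, n = 3) in the ginkgetin libraries. Unthinned shares were 93.8%, 85.8% and 95.2% in the vehicle and 52.9%, 44.7% and 38.0% in the ginkgetin libraries. The thinning left out 58 of 550 cells of ginkgetin replicate 3 and 2 of 1092 of vehicle replicate 3. Every class held *Psmb8*, with the lowest mean in hepatocyte-like cells (123.1 CPM), so no class gives a background share to set beside these values.

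The other 9 members did not pass in macrophage-like cells. *H2-D1* had 3165, 2794 and 2547 CPM in the vehicle libraries and 2737, 2249 and 1968 CPM in the ginkgetin libraries, which overlap, with a log2 fold change of -0.72 (SE 0.30, adjusted p = 0.15). *Psmb9* had 260.5, 207.3 and 182.4 CPM against 230.4, 152.5 and 175.9 CPM, with a log2 fold change of -0.67 (SE 0.29, adjusted p = 0.17). The labels do not pair the libraries of the groups. With the replicate number as a block, as an alternative, *H2-D1* (-0.75, adjusted p = 0.023) and *Psmb9* (-0.68, adjusted p = 0.021) also passed by edgeR's test, and *Psmb8* stayed called (-1.30, adjusted p = 0.0013). That fit called 15.2% of all genes lower in ginkgetin. *B2m* had 8448, 7564 and 2223 CPM in the vehicle and 6020, 4008 and 4328 CPM in the ginkgetin libraries. Ginkgetin was thus lower in replicates 1 and 2 (-0.68 as a log2 ratio of mean CPM) and higher in replicate 3 (0.96), and the value over all libraries was -0.80 (SE 0.56, adjusted p = 0.37).

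The scale of the comparison matters for the members that stood higher. *H2-K1* had 1599, 1384 and 1491 CPM in the vehicle and 2183, 1896 and 2663 CPM in the ginkgetin libraries, and *Tap1* had 73.7, 66.9 and 82.5 against 102.8, 86.5 and 94.8 CPM. Neither gene overlapped between groups on this scale, on which 32.9% of all genes had every ginkgetin library above every vehicle library. The TMM scaling of edgeR, which centres the genes of a class, gave log2 fold changes of 0.13 for *H2-K1* and -0.10 for *Tap1* (adjusted p = 0.75 and 0.77), because the median gene lay at 0.03 with TMM and at 0.52 with library totals alone. With library totals in edgeR *H2-K1* had 0.60 (adjusted p = 0.086), *Tap1* 0.35 (adjusted p = 0.21) and *Psmb8* -0.83 (adjusted p = 0.039). The falls of *H2-D1* and *Psmb9* were also smaller on the CPM scale than with TMM. As log2 ratios of mean CPM, *H2-D1* had -0.26 in replicates 1 and 2 and -0.37 in replicate 3, and *Psmb9* had -0.29 and -0.05. Of the genes called in the class, 635 were lower and 672 higher with TMM, and 229 lower and 1744 higher with library totals. *Tap2* (0.30), *Tapbp* (0.45), *Erap1* (0.36) and *Nlrc5* (-0.38) did not pass with TMM (adjusted p 0.36 to 0.64).

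Ratios of members within a library do not depend on the scaling, except near 0, where the 1 CPM added to each value matters. The log2 ratio of *H2-D1* to *H2-K1* in macrophage-like cells was 0.92 ± 0.13 (SD, n = 3) in the vehicle and 0.05 ± 0.42 (SD, n = 3) in the ginkgetin libraries, which did not overlap (two-sided exact permutation p = 0.10, the smallest that 3 against 3 allow). In Kupffer-like cells the difference was -1.05, without overlap, and in monocyte-derived macrophage-like cells it was -0.21, with overlap (exact permutation p = 0.20). By its mean the ratio was lower in ginkgetin in 9 of 10 classes, without overlap also in stellate-like cells (-0.25) and in the finer monocyte-like class (-0.35), and in plasma-like cells it was higher without overlap (0.20). In endothelial-like cells the same ratio was 0.12 ± 0.17 (SD, n = 3) and -0.06 ± 0.09 (SD, n = 3), with overlap (exact permutation p = 0.30). The ratio of *Psmb9* to *Tap1*, the genes on either side of the shared interval, was lower in the ginkgetin libraries in 9 of 10 classes by its mean. It did not overlap between groups in 4 of them. The 9 include hepatocyte-like cells, where *Tap1* had 0 UMIs in vehicle replicates 1 and 2 and ginkgetin replicate 2. There the ratio was set by the 1 CPM added and is not a measured difference. In dendritic-like cells it was 1.68 ± 0.10 (SD, n = 3) in the vehicle and 0.94 ± 0.08 (SD, n = 3) in the ginkgetin libraries (exact permutation p = 0.10). These last 2 ratios were chosen after the values had been seen, and with adjustment over the 26 ratios of classes tested none passed (lowest adjusted p = 0.26).

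**Figure D2:**
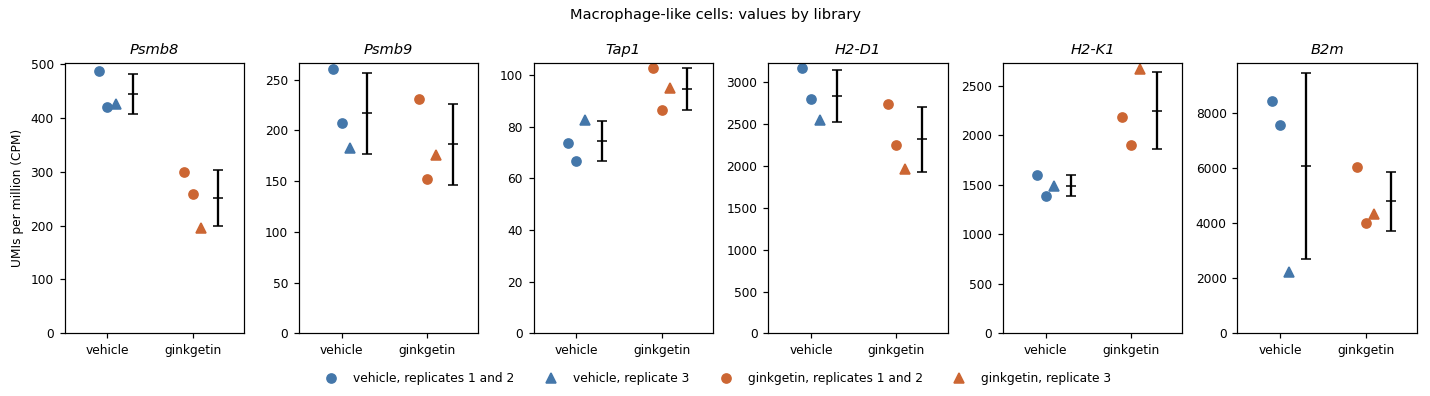
CPM (vertical axes, linear, from 0) of 6 members in macrophage-like cells by library, with triangles for replicate 3 and bars for the mean and SD of the 3 libraries of a group. *Psmb8* lies between 195.8 and 299.0 CPM in ginkgetin and between 420.3 and 486.8 CPM in vehicle libraries, while *H2-K1* and *Tap1* lie higher in every ginkgetin library on this scale, and with TMM the value of *Tap1* turns to -0.10.

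The cells behind these values differed between groups in other measured ways. Macrophage-like cells numbered 1233, 690 and 1092 in the vehicle and 102, 244 and 550 in the ginkgetin libraries, with median UMIs per cell of 7542.5 to 16357 against 2079.5 to 2351.5. The summed level of the 8 endothelial markers in them was 183.4 to 213.6 CPM in the vehicle and 878.2 to 1552 CPM in the ginkgetin libraries, with all 8 markers higher and none at 0. T cell markers summed to 4.95 to 9.45 CPM against 34.3 to 52.8 CPM, with 7 of 7 higher. The class also drew on different clusters: the Kupffer-like cells came mostly from the cluster led by *Fabp7* and *Folr2* in replicates 1 and 2, from that led by *Marco* and *C6* in ginkgetin replicate 3 and from that led by *Mmp12* and *Clec4f* in vehicle replicate 3. The part of depth, of these markers and of the clusters in the *Psmb8* result was not tested.

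Macrophage-like cells mix 2 kinds whose shares differed, so each was tested alone. The name Kupffer-like rests on 7 markers of resident macrophages, among them *Clec4f*, *Vsig4* and *Cd5l*. The cluster led by *Marco* and *C6* held all 7, and those led by *Fabp7* and *Folr2* and by *Mmp12* and *Clec4f* held 5 each. Pooled *Psmb8* was 172.3 CPM in the first of these clusters and 439.5 and 354.5 CPM in the others. Kupffer-like cells numbered 622, 374 and 376 in the vehicle and 89, 206 and 514 in the ginkgetin libraries. *Psmb8* in them had 470.6, 405.4 and 354.6 CPM against 289.6, 214.6 and 171.7 CPM, again without overlap (8.55% of all genes in this direction), with a log2 fold change of -1.26 (adjusted p = 0.057) that did not pass, where 9.16% of all genes were called. With no filter on cells, where the clustering left 10, 31 and 18 vehicle cells in this class, it was -0.35 (adjusted p = 0.87), and with the UMI range it was -0.82 (adjusted p = 0.31). DESeq2 called it lower (-1.32, adjusted p = 0.0039), beside 7.91% of all genes. With the replicate block *Psmb8* (-1.30, adjusted p = 0.0011), *H2-D1* (-0.78, adjusted p = 0.016) and *Psmb9* (-0.74, adjusted p = 0.019) passed by edgeR's test, beside 14.1% of all genes called lower. Monocyte-derived macrophage-like cells, led by *Trem2* and *Gpnmb*, numbered 611, 316 and 716 in the vehicle but only 13, 38 and 36 in the ginkgetin libraries. Their *Psmb8* had 507.6, 434.4 and 469.9 CPM against 335.2, 384.8 and 327.4 CPM, without overlap where 7.5% of all genes had none in this direction (log2 fold change -0.74, adjusted p = 0.18), and 0.0751% of all genes were called. DESeq2 called it lower there too (-0.72, adjusted p = 0.014), beside 2.6% of all genes. With the block *Psmb8* (-0.72, adjusted p = 0.012) and *B2m* (-0.47, adjusted p = 0.031) passed there, beside 6.56% of all genes called lower. *B2m* was lower in ginkgetin in replicates 1 and 2 (-0.38 as a log2 ratio of mean CPM) but higher in replicate 3 (0.36), and it did not pass with the barcode-set block. In monocyte-like cells, led by *Chil3* and *Plac8*, *Psmb8* had 599.1, 474.5 and 659.0 CPM against 776.7, 391.7 and 474.9 CPM, which overlap (log2 fold change -0.13), and 0% of the genes were called.

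In endothelial-like cells, which line the sinusoids and vessels, no member passed, and 0.25% of 10404 genes were called. No member there had an unadjusted p under 0.05, and DESeq2 called none. *B2m* had 6317, 6479 and 2318 CPM in the vehicle and 4309, 3437 and 3366 CPM in the ginkgetin libraries, so again replicate 3 ran opposite to the others. In replicates 1 and 2 alone *B2m* passed in endothelial-like (-0.86, adjusted p = 0.024), macrophage-like (-1.03, adjusted p = 0.032) and Kupffer-like cells (-1.16, adjusted p = 0.021) by edgeR's test, beside 4.06%, 9.22% and 9.01% of all genes called lower. *H2-K1* had 1592 to 1701 CPM in the vehicle and 1566 to 2029 CPM in the ginkgetin libraries and a log2 fold change of 0.01 (SE 0.27). With the replicate block *Psmb8* passed (-0.48, adjusted p = 0.048), beside 5.6% of all genes called lower. Its libraries overlapped, with 220.2, 187.3 and 145.1 CPM against 173.1, 158.2 and 108.5 CPM. The endothelial-like cells came mostly from the cluster led by *Fabp4* and *Lyve1* in vehicle replicates 1 and 2 and from that led by *Ehd3* in ginkgetin replicates 1 and 2, and the summed level of the 8 macrophage markers in them was 168.7 to 288.2 CPM in the vehicle and 50.1 to 131.2 CPM in the ginkgetin libraries, with 1 of 8 higher and none at 0. The part of the clusters and of these markers was not tested.

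In the other 8 classes no member passed either. The tests called 0% of all genes in T-like, B-like, plasma-like, NK-like, dendritic-like, stellate-like and hepatocyte-like cells and 0.176% in cholangiocyte-like cells. At an unadjusted p under 0.05 there were 4 members in plasma-like, 3 in B-like, 1 in T-like, 1 in NK-like and 0 in the remaining 4 classes. Over all genes the share at that p was 11.4% in plasma-like, 12.2% in B-like, 10.8% in T-like and 9.82% in NK-like cells. DESeq2 called *H2-K1* lower in plasma-like cells, beside 0.487% of all genes called lower. With the barcode-set block *B2m* (-0.99, adjusted p = 0.031) and *H2-K1* (-0.89, adjusted p = 0.0497) passed in plasma-like cells by edgeR's test, beside 0.807% of all genes called lower, while with the replicate block no member passed there. The lowest p of B-like cells was that of *Psmb9*, with 234.9, 170.9 and 213.0 CPM in the vehicle and 97.8, 101.9 and 135.0 CPM in the ginkgetin libraries, which did not overlap (log2 fold change -0.97, adjusted p = 0.34). It passed under the replicate block, with an adjusted p = 0.0497 by edgeR's test, and also with a barcode-set block (adjusted p = 0.041), where 0.863% and 0.978% of all genes were called lower. Of all genes in B-like cells 7.92% had every ginkgetin library below every vehicle library, as did *H2-D1* (-0.79) and *Psmb8* (-0.76) besides *Psmb9*, neither of which passed (adjusted p = 0.38 each). In T-like cells *H2-D1*, *Psmb8* and *Psmb9* each had all ginkgetin libraries below all vehicle libraries, with log2 fold changes of -0.55, -0.52 and -0.61, against 9.13% of all genes without such overlap in that direction. T-like cells of the 2 groups came from the same clusters in unlike shares. The cluster led by *Lef1* (pooled *Psmb8* 466.9 CPM) held 225 and 60 cells of vehicle replicates 1 and 2 and 126 and 410 of the ginkgetin ones. That led by *Ccl5* and *Gzmk* (823.2 CPM) held 381 and 269 against 313 and 58, and that led by *Cd40lg* (655.7 CPM) 529 and 299 against 662 and 494. The *Lef1* cluster was thus larger in ginkgetin in replicate 2 only. Replicate 3 fell almost wholly in the cluster led by *Trbc2*, with 777 vehicle and 570 ginkgetin cells. The part of these clusters was not tested. In NK-like cells *Nlrc5* had 56.8, 27.5 and 91.5 CPM in the vehicle and 77.2, 99.4 and 184.0 CPM in the ginkgetin libraries, which overlap (log2 fold change 0.91, adjusted p = 0.47). Whether the change of *Psmb8* in macrophage-like cells differed from its change in other classes was not tested.

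Under the low-count filter 8 values were not tested, *Nlrc5* in stellate-like, cholangiocyte-like and hepatocyte-like cells, *Erap1* in stellate-like and hepatocyte-like cells and *Tap1*, *Tap2* and *Tapbp* in hepatocyte-like cells. The median log2 fold change over the members that were tested was below 0 in 11 of 13 classes, from -0.03 in hepatocyte-like and stellate-like to -0.40 in B-like and -0.65 in plasma-like cells, and was 0.09 in NK-like and 0.19 in monocyte-like cells. It was -0.24 in macrophage-like and T-like cells and -0.13 in endothelial-like cells, while the median over all genes lay between -0.03 and 0.04 in each class. With library totals alone it was below 0 in 6 of 13 classes, and it turned above 0 in macrophage-like (0.24), Kupffer-like (0.24), monocyte-derived macrophage-like (0.09), endothelial-like (0.005) and hepatocyte-like cells (0.17), where the medians over all genes were 0.52, 0.48, 0.31, 0.13 and 0.18.

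**Figure D3:**
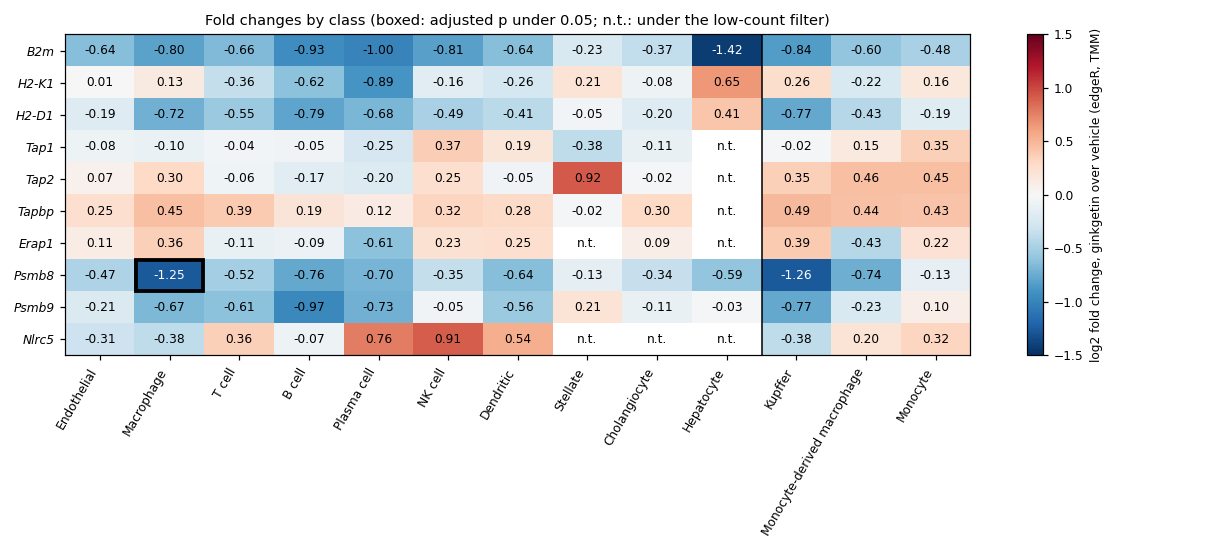
Log2 fold changes, ginkgetin over vehicle, from edgeR with TMM scaling for the 10 members (vertical) in 10 classes and, right of the line, 3 finer macrophage and monocyte classes (horizontal). The box marks *Psmb8* in macrophage-like cells (-1.25), the one value with an adjusted p under 0.05, and cells marked n.t. were under the low-count filter.

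The rest of the pathway was read from 6 lists of 48 genes. In the peptide supply list, 4 of the 8 genes tested in macrophage-like cells were called, all lower, beside 6.26% of all genes. Among them were the constitutive catalytic subunits that *Psmb8*, *Psmb9* and *Psmb10* replace. *Psmb6* fell from 300.3 ± 33.2 to 125.9 ± 28.4 CPM (SD, n = 3 each), by 1.69 on the log2 scale (adjusted p = 0.020). *Psmb5* fell by 1.27 (adjusted p = 0.025) and *Psmb7* by 1.22 (adjusted p = 0.027), and the fourth was *Psme1*, a subunit of the interferon-inducible proteasome activator. The median log2 fold change over the list was -0.75, against 0.03 over all genes. It was below 0 in every other class as well, from -0.11 in stellate-like to -0.89 in Kupffer-like cells. Among these values were -0.67 in hepatocyte-like, -0.66 in B-like, -0.62 in dendritic-like and -0.30 in endothelial-like cells. No gene of any kind was called in macrophage-like cells when the first or the second vehicle library, or ginkgetin replicate 2, was left out. These edgeR fits called 0 genes each, with 2026, 1994 and 2839 at an unadjusted p under 0.05. Whether the values of those libraries or the smaller fits lie behind the lost calls was not tested. In Kupffer-like cells *Psmb5*, *Psmb6* and *Psmb7* were the 3 called, all lower, where 4.53% of all genes were called lower.

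Inducible subunits were therefore set against constitutive ones in each library. The log2 ratio of *Psmb8* to *Psmb5* in macrophage-like cells was 1.41 ± 0.05 (SD, n = 3) in the vehicle and 1.40 ± 0.33 (SD, n = 3) in the ginkgetin libraries (exact permutation p = 1.0). Within the finer classes this ratio was 1.19 ± 0.14 and 1.22 ± 0.45 in Kupffer-like cells, with overlap, but 1.61 ± 0.04 and 1.95 ± 0.28 in monocyte-derived macrophage-like and 1.605 ± 0.11 and 2.15 ± 0.32 in monocyte-like cells (SD, n = 3 each), both higher in ginkgetin without overlap (exact permutation p = 0.10 each). The ratio of *Psmb9* to *Psmb6* was -0.48 ± 0.16 (SD, n = 3) and 0.57 ± 0.39 (SD, n = 3), without overlap (exact permutation p = 0.10), and was higher in ginkgetin within replicates 1 and 2 (0.79) and within replicate 3 (1.56). The ratio of *Psmb10* to *Psmb7* was 0.75 ± 0.29 (SD, n = 3) and 1.40 ± 0.22 (SD, n = 3), also without overlap (exact permutation p = 0.10). In endothelial-like cells the ratios of *Psmb9* to *Psmb6* and of *Psmb10* to *Psmb7* were likewise higher in ginkgetin without overlap, by 0.45 and 0.48. The ratio of *Psmb9* to *Psmb6* was also higher without overlap in NK-like cells (0.75). In hepatocyte-like cells it was higher by 0.51 with only 2 ginkgetin libraries, of which replicate 2 had 12 cells. The nearest values of the groups there were -2.57 in vehicle and -2.56 in ginkgetin (exact permutation p = 0.20). By its mean the ratio was lower, with overlap, in T-like (-0.07), B-like (-0.09) and plasma-like cells (-0.07). After adjustment over 39 ratios of classes none passed (lowest adjusted p = 0.355). Across classes the ratio of *Psmb8* to *Psmb5* was lowest in hepatocyte-like cells (-1.42) and highest in T-like cells (2.82), and that of *Psmb9* to *Psmb6* was lowest in hepatocyte-like (-2.60) and highest in dendritic-like cells (1.55).

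**Figure D4:**
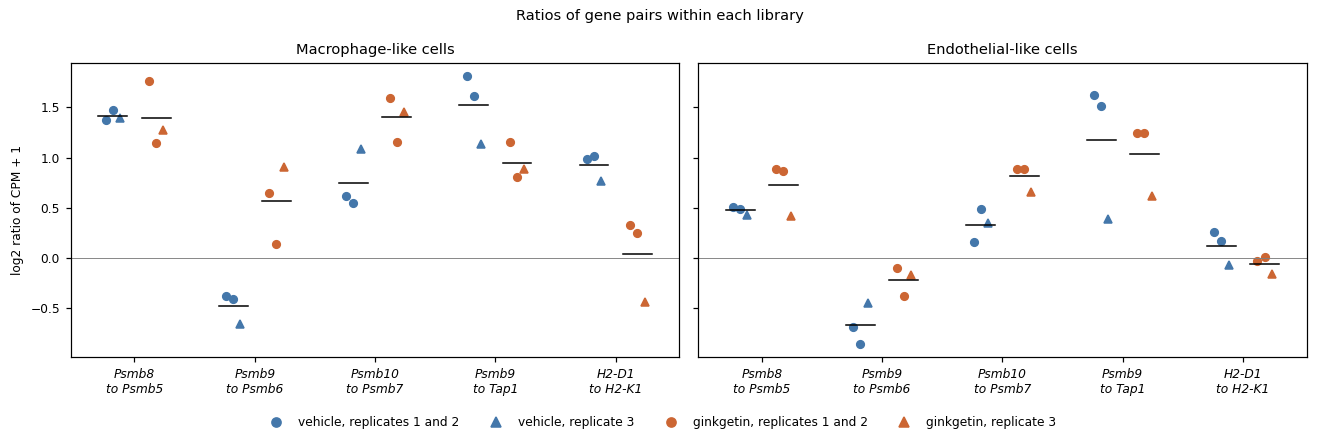
Log2 ratios of CPM + 1 (vertical axis) for 5 pairs of genes in macrophage-like and endothelial-like cells, with 1 point per library, triangles for replicate 3 and a bar for each group's mean. In macrophage-like cells the ratio of *Psmb8* to *Psmb5* overlaps between groups, while that of *Psmb9* to *Psmb6* is higher and that of *H2-D1* to *H2-K1* lower in every ginkgetin library.

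The other lists had 1 gene called each, apart from *Ifng*, which was not tested in macrophage-like cells, and 6.63% of all genes were called higher there. Of the loading chaperones, *Canx* (calnexin) rose in macrophage-like cells by 0.78 on the log2 scale (adjusted p = 0.045), 1 of 4 tested. Of the class Ib heavy chains, *Cd1d1*, which presents lipids, rose there by 0.92 (adjusted p = 0.045), 1 of 10 tested. Of 15 regulators tested, *Rfx5*, a subunit of the factor that binds class I and class II promoters, rose from 4.34 ± 0.21 to 17.6 ± 2.57 CPM (SD, n = 3 each, log2 fold change 1.53, adjusted p = 0.020). Of 3 class I receptors tested, *Klrc1*, an inhibitory NK receptor chain, rose from 1.45 ± 0.81 to 13.6 ± 4.13 CPM (SD, n = 3 each, adjusted p = 0.025), beside the higher T cell markers in the same libraries. In Kupffer-like cells *Rfx5* and *Klrc1* rose as well. No gene of these lists was called in the other 11 classes tested.

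Interferon gamma, the inducer of the pathway, was counted where it is made. *Ifng* had 174.8 ± 26.9 CPM in the vehicle and 93.9 ± 45.2 CPM in the ginkgetin libraries in T-like cells (SD, n = 3 each, log2 fold change -0.90, adjusted p = 0.46 by edgeR). In NK-like cells it had 174.9 ± 81.9 and 168.4 ± 70.0 CPM (SD, n = 3 each, log2 fold change -0.15). *Cd8b1*, a chain of the receptor that binds class I on T cells, had 431.0 ± 79.1 and 204.1 ± 48.1 CPM in T-like cells (SD, n = 3 each, adjusted p = 0.42).

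**Figure D5:**
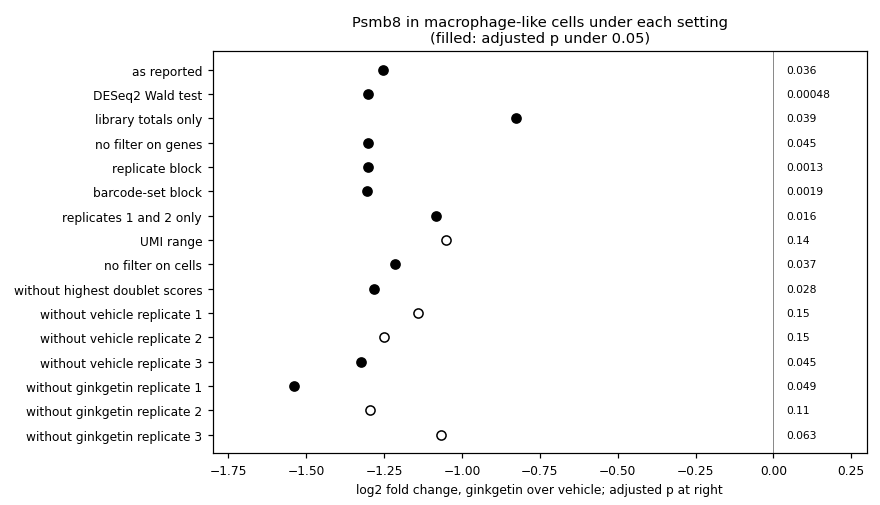
Log2 fold change of *Psmb8* in macrophage-like cells (horizontal axis) under each setting (vertical axis), with the adjusted p at the right and filled points for an adjusted p under 0.05. All 16 values are negative, and 5 of them miss the threshold, with the UMI range and without vehicle replicate 1, vehicle replicate 2, ginkgetin replicate 2 or ginkgetin replicate 3.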

How the data were processed

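Raw UMI counts per gene and cell barcode were deposited by the authors as 1 table per library. Per the study's methods cells were meant to be kept with 250 to 5000 UMIs and under 5% mitochondrial reads. The aligner is not given in the sources used here, and the submitters' processing notes name GRCm38 and mm10. Cells with 250 to 5000 detected genes and under 5% mitochondrial UMIs were kept (27544 of 33168), and the range on UMIs (16821 cells) was an alternative. Scrublet called 0.0286% to 0.192% of cells and was not relied on, so doublets stayed in. Cells were clustered with scanpy 1.11.5 (2000 variable genes less the class I lists, 30 components, resolution 1), and clusters were named by markers. Finer macrophage and monocyte classes came from a second naming of the same clusters rather than from clustering again.

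UMIs were summed per library and class, with at least 10 cells, and tested with edgeR 4.0.16 (quasi-likelihood, TMM, filterByExpr) in R 4.3.3, with p-values adjusted by Benjamini-Hochberg over all genes of a class and called under 0.05. DESeq2 1.42.0 was an alternative. CPM was not divided by gene length, and ratios used CPM + 1. Limits for a count of 0 use 3 counts and cover counting error only. Scripts were tested on simulated data. Libraries with the same replicate number deviated together, with correlations of 0.318 to 0.892 in 27 of 27 pairs over 9 classes. Among replicates 1 and 2, libraries with different numbers had 0.093 to 0.646, which overlaps that range. The labels give no pairing, and these correlations do not pair the libraries of replicates 1 and 2 by number. The fit with a replicate block is an alternative, given where it changes a call.

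Members and lists were chosen with earlier results of these data known. All members are named. Of the other lists, the called genes were named, at most 3 per list and class by lowest p, and otherwise the gene with the lowest p where a result turned on it. The 3 genes most alike by Pearson r were named for 6 members. *Psme1*, *Ifng* in NK-like cells, and the genes alike to *Psmb8* were named after their values were seen. Promoter sequences are from RefSeq (GRCm38.p6).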

Additional observations from a re-analysis of the deposited data

How the results depend on the processing

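Over 21 fold changes of members that were followed, direction and side of the threshold were kept in 273 of 309 alternatives. Of these 21 only *Psmb8* in macrophage-like cells was called at the start, and it kept its call in 10 of 15 alternatives. The others began on the uncalled side, so the total is mostly a count of values that stayed uncalled. Over 9 ratio differences the direction was kept in 91 of 99. Over 10 differences between the highest and lowest class the value moved by less than the spread in 92 of 100. The causes of the changes were not tested. In macrophage-like cells the number of members called was 1, and 3 with the replicate block, 3 with a barcode-set block, 2 in replicates 1 and 2 only, 0 with the UMI range and 0 to 1 when 1 library was left out. In endothelial-like cells it was 0, and 1 with the replicate block, 1 with the barcode-set block and 1 in replicates 1 and 2 only. In Kupffer-like cells it was 0, and 1 with DESeq2, 3 with the replicate block, 3 with the barcode-set block, 3 in replicates 1 and 2 only and 0 to 1 when 1 library was left out (1 without vehicle replicate 3). In monocyte-derived macrophage-like cells it was 0, and 1 with DESeq2, 2 with the replicate block and 1 with the barcode-set block. In T-like, B-like, plasma-like, NK-like, dendritic-like, stellate-like, cholangiocyte-like and hepatocyte-like cells together it was 0, and 1 with DESeq2, 1 with no filter on genes, 1 with the replicate block and 3 with the barcode-set block. Over all genes, macrophage-like cells had 1307 called, and 2793 with the replicate block, 3076 with the barcode-set block, 1973 with library totals only, 706 with no filter on genes, 123 with the UMI range and 0 to 1246 when 1 library was left out. Endothelial-like cells had 26, and 411 with DESeq2, 903 and 1293 with the blocks, 649 in replicates 1 and 2 only, 60 with no filter on cells, 13 with library totals only and 0 to 1 when 1 library was left out. Kupffer-like cells had 828, and 2304 and 2524 with the blocks, 1363 in replicates 1 and 2 only, 1273 with library totals only, 508 with no filter on genes, 37 with the UMI range, 0 with no filter on cells and 0 to 968 when 1 library was left out. In macrophage-like cells *Tap1* reversed to 0.35 with library totals only and 0.025 in replicates 1 and 2 only, *Nlrc5* to 0.14 with library totals only and *Erap1* to -0.19 without ginkgetin replicate 3 (-0.19 to 0.82 over the libraries left out). *Psmb9* in Kupffer-like cells reversed to 0.36 with no filter on cells. The difference in the *Psmb8* to *Psmb5* ratio in macrophage-like cells was -0.02 and reversed to 0.13 with the UMI range, 0.061 with no filter on cells, 0.032 in replicates 1 and 2 only and to 0.014, 0.11 and 0.044 without vehicle replicate 2, ginkgetin replicate 2 and ginkgetin replicate 3 (-0.20 to 0.11 over the libraries left out). In Kupffer-like cells it reversed to -0.043 without vehicle replicate 3 and -0.22 without ginkgetin replicate 1 (-0.22 to 0.20 over the libraries left out). The low UMI totals of the ginkgetin macrophage-like cells limit *Nlrc5*, with 2, 10 and 38 UMIs.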
